A study of Arabidopsis thaliana with 12 samples.

Results

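The KNOX genes of Arabidopsis thaliana encode homeodomain transcription factors with a three-residue insertion in the homeodomain, which gave the wider superclass its name TALE. The 8 members described here were taken by locus from the table of counts. They are the class I genes STM (AT1G62360), KNAT1 (AT4G08150), KNAT2 (AT1G70510) and KNAT6 (AT1G23380) and the class II genes KNAT3 (AT5G25220), KNAT4 (AT5G11060), KNAT5 (AT4G32040) and KNAT7 (AT1G62990). All 8 were present among the 29420 loci of the table, and all 8 were among the 22076 genes that passed the filter on low counts. RNA came from 14-day-old seedlings raised on 1/2MS medium under long days, and 4 genotypes were compared. These were the double mutant brm-1 ref6-1, the single mutants brm-1 and ref6-1, and WT, with 3 libraries each and 12 in all. The kind of change carried by either allele is not given in the sources used here.

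Class I KNOX proteins keep cells of the shoot apical meristem undifferentiated, in part by raising cytokinin and lowering gibberellin, and they are normally silenced in leaf primordia. Class II proteins act in differentiating organs, and KNAT7 regulates secondary wall formation. KNOX proteins work as dimers with BELL homeodomain proteins. BRM is the motor subunit of SWI/SNF complexes, which shift nucleosomes with energy from ATP, and REF6 is a demethylase that removes the Polycomb mark H3K27me3. Class I KNOX genes are well-known Polycomb targets, so the comparison asks how their transcripts, and those of their class II relatives, stood when either chromatin regulator or both were mutated.

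Part of each member's homeobox is shown first. The members differ in it largely but not strictly by class, and it bears on whether reads could be shared between them. It is the stretch of 96 coding bases from the codons of the three-residue loop insertion to the end of the third helix, read from the RefSeq TAIR10.1 genome on each gene's own strand. Capitals mark the first 9 bases, which encode the inserted residues, and the last 24 bases, which encode the last part of that helix.
STM: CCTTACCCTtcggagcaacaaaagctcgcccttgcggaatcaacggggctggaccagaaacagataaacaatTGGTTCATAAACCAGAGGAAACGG
KNAT1: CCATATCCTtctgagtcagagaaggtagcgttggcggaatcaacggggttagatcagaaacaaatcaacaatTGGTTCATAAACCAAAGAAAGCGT
KNAT2: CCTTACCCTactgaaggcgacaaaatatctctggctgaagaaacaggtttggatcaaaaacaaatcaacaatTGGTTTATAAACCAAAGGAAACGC
KNAT6: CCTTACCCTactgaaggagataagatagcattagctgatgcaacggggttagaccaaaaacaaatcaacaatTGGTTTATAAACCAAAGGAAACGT
KNAT3: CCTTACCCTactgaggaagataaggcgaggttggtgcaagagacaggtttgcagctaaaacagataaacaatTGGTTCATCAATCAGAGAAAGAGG
KNAT4: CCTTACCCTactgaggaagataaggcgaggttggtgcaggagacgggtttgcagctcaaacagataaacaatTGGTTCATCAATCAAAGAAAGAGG
KNAT5: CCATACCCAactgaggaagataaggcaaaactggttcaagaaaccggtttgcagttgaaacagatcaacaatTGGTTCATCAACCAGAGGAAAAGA
KNAT7: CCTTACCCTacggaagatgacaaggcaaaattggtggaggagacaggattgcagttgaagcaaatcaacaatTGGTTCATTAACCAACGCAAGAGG
In every member 1 intron interrupts this stretch after base 12. Its length varied within both classes, with 628 bases in STM, 683 in KNAT1, 91 in KNAT2 and 89 in KNAT6, and 78 in KNAT3, 158 in KNAT4, 81 in KNAT5 and 459 in KNAT7. Within class I, pairs of genes had 71.9 to 85.4% of bases in common, with KNAT2 and KNAT6 the closest pair. Within class II the range was 78.1 to 95.8%, and KNAT3 and KNAT4 shared 92 of 96 bases. Pairs from different classes shared 63.5 to 72.9%. The longest run of exon sequence common to any 2 members was 41 bases, in KNAT2 with KNAT6 and in KNAT3 with KNAT4, which is shorter than the reads of 100 bases. No annotated gene overlapped any of the 8 members.

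Library totals lay between 10119148 and 11860892 counts. The labels give 3 biological replicates per genotype, and the extraction protocol also speaks of pooling their RNA, so p-values measure only the spread between these libraries, which may be technical. BRM itself was counted 60, 35 and 438 times in the double mutant, 43, 50 and 74 times in brm-1, 3012, 2761 and 3003 times in ref6-1, and 3282, 2998 and 3067 times in WT. Double-mutant replicate 3 thus stood apart, at a level well below WT and above the other libraries that carry brm-1, and the double-mutant changes of the 8 members were also computed without it. REF6 averaged 79.4 ± 0.711 CPM (counts scaled to a common library size) in the double mutant, 90.4 ± 0.894 CPM in brm-1, 80.5 ± 2.59 CPM in ref6-1 and 89.5 ± 6.65 CPM in WT (SD, n = 3 each). Its log2 change in ref6-1 against WT was -0.15 ± 0.05 (SE, edgeR adjusted p = 0.06). In the double mutant against WT the REF6 change was -0.17 ± 0.05 (edgeR adjusted p = 0.0135), a call lost without WT replicate 1 (edgeR adjusted p = 0.059). Against brm-1 the double mutant was lower by 0.19 ± 0.05 (edgeR adjusted p = 0.0403). Since a mutant allele can still be transcribed, these levels do not check the ref6-1 label. The highest count of any locus was 6707, and RBCS1A, which encodes a Rubisco small subunit, averaged only 115 CPM in WT. Levels of abundant transcripts may therefore be compressed in these counts. Markers of the shoot and the root were both present in every library. In whole seedlings, fewer cells of a type and less RNA per cell cannot be told apart.

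Length-scaled levels were highest in 3 of the 4 class II genes, while KNAT7, also of class II, lay below KNAT1 of class I in every genotype. KNAT3 averaged 89.7 CPM in WT, near the 115 CPM of RBCS1A. The possible compression of abundant transcripts named above therefore also limits this ranking, and its effect was not tested. On the scale of CPM per kb of exon, WT seedlings had the 3 highest levels in class II genes. KNAT3 stood at 43.8 ± 1.68, KNAT5 at 34.4 ± 0.644 and KNAT4 at 32.1 ± 1.09 CPM per kb (SD, n = 3), with no overlap between neighbours in this order. KNAT1 followed at 20.0 ± 0.223 CPM per kb, the highest mean in class I. KNAT7, at 19.1 ± 0.138, and KNAT6, at 18.5 ± 1.68 CPM per kb, overlapped. KNAT6 also overlapped KNAT1, since KNAT6 in WT replicate 1 (20.35 CPM per kb) lay above every KNAT1 library of WT. STM, which is needed to form and keep the shoot meristem, had 8.92 ± 1.69 CPM per kb, and KNAT2 was lowest at 2.38 ± 0.507 CPM per kb. STM is active in few cells of a seedling, and the stem cell regulators WUS and CLV3 were counted at most 5 times in any library.

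The order of levels differed between genotypes at a few places. KNAT7 had 12.9 ± 0.438 CPM per kb in the double mutant and 12.6 ± 0.534 CPM per kb in brm-1, and in both genotypes it overlapped STM, its lower neighbour, at 11.2 ± 2.26 and 11.6 ± 0.997 CPM per kb. In ref6-1 and in WT all KNAT7 libraries lay above all STM libraries. KNAT1 reached 30.9 ± 1.32 CPM per kb in the double mutant, above every KNAT6 library there. In brm-1 KNAT1, at 24.1 ± 0.823 CPM per kb, overlapped KNAT6, at 22.7 ± 2.38 CPM per kb, as it did in WT. In ref6-1 KNAT1 lay just above every KNAT6 library. KNAT4 and KNAT5 overlapped in the double mutant and in brm-1. In WT all KNAT5 libraries lay above all KNAT4 libraries. In ref6-1 the order was reversed without overlap, with KNAT4 at 35.1 ± 0.656 and KNAT5 at 32.4 ± 0.800 CPM per kb.

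**Figure D1:**
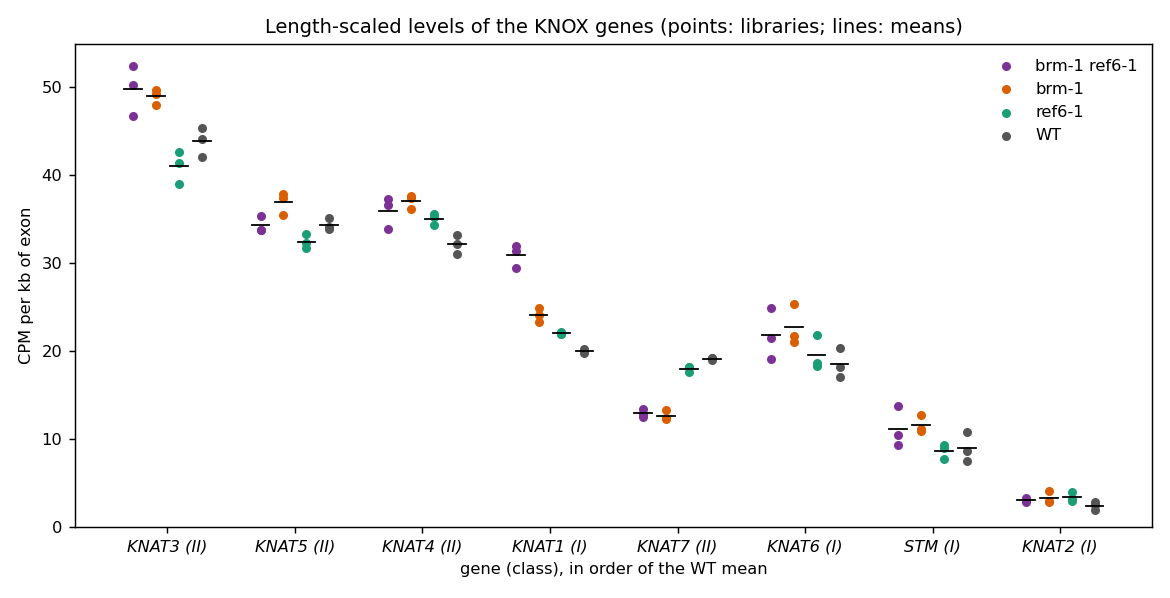
Levels of the 8 KNOX genes in CPM per kb of exon (y axis), with genes along the x axis in the order of their WT mean. Points are libraries and short lines are means of 3 libraries, coloured by genotype. KNAT3, KNAT5 and KNAT4 lie highest, KNAT2 lowest, and the brm-1 ref6-1 and brm-1 points of KNAT7 lie below those of ref6-1 and WT.

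Against WT, the double mutant had 4 of 8 members past the test and brm-1 had 4 of 8. In both, 3 members rose (KNAT1, KNAT3 and KNAT4) and 1 fell (KNAT7). In ref6-1 none of the 8 passed with edgeR, DESeq2 or limma-voom, and 3 had an unadjusted p under 0.05 (KNAT1, KNAT2 and KNAT4). Over all genes tested, edgeR called 31.2% in the double mutant, 19.0% in brm-1 and 7.95% in ref6-1, at an adjusted p under 0.05. The median log2 change over the 8 members was 0.21 in the double mutant, 0.24 in brm-1 and 0.01 in ref6-1, against a median of 0 over all genes in each. These comparisons share the WT libraries.

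KNAT1, also known as BREVIPEDICELLUS, acts in the meristem and in stem and pedicel growth, and had the largest change among the members that rose in the double mutant. The gene lies on chromosome 4 at 5147699 to 5151159, on the minus strand of TAIR10.1, with 2016 exonic bases. It stood at 64.3, 63.3 and 59.3 CPM in double-mutant libraries 1 to 3, at 48.5, 50.2 and 46.9 CPM in brm-1, at 44.8, 44.1 and 44.2 CPM in ref6-1, and at 40.8, 39.9 and 40.2 CPM in WT. No genotype overlapped another, with the double mutant highest and WT lowest. Against WT its log2 change was 0.63 ± 0.04 in the double mutant (SE, 95% interval 0.54 to 0.72, edgeR adjusted p = 1.78e-06), which is 1.54-fold. In brm-1 the log2 change was 0.27 ± 0.04 (0.18 to 0.36, edgeR adjusted p = 0.000859). In ref6-1 it was 0.14 ± 0.04 (0.05 to 0.23, edgeR adjusted p = 0.0922), a value that did not pass although the 3 libraries lay above all WT libraries. Without double-mutant replicate 3 the first of these values was 0.66 (edgeR adjusted p = 3.28e-06).

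The summed level of 4 floral organ markers was highest in the double mutant and lowest in WT, as KNAT1 was, but AG, one of them, was highest in brm-1. The summed level of AP1, AG, AP3 and PI, 4 MADS-box genes of flowers, ranged over 18.2 to 21.0 CPM in the double mutant, 12.7 to 14.6 CPM in brm-1, 11.8 to 13.3 CPM in ref6-1 and 7.75 to 9.23 CPM in WT. None of the 4 was at 0 in any library. Of the 3 that passed the filter, 2 were called higher in the double mutant (AP1 and PI), 1 in brm-1 (AG) and 1 in ref6-1 (PI). Among all genes tested, 14.0% were called higher in the double mutant, 8.88% in brm-1 and 2.33% in ref6-1. AG averaged 2.04 ± 0.517 CPM in the double mutant, 5.89 ± 0.578 CPM in brm-1, 1.15 ± 0.432 CPM in ref6-1 and 2.57 ± 0.755 CPM in WT (SD, n = 3 each). Against WT its log2 change was -0.32 in the double mutant (edgeR adjusted p = 0.462) and -1.15 in ref6-1 (edgeR adjusted p = 0.054), and in the double mutant against brm-1 AG fell by 1.52 (edgeR adjusted p = 0.0115). Their part in the KNAT1 result was not tested.

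The other class I genes passed in no comparison with WT, with log2 changes between -0.05 and 0.50. STM had 15.9, 17.9 and 23.3 CPM in the double mutant, 19.0, 21.7 and 18.7 CPM in brm-1, 13.1, 15.3 and 15.8 CPM in ref6-1, and 18.3, 14.6 and 12.7 CPM in WT. The brm-1 libraries all lay above the WT libraries, while double-mutant replicates 1 and 2 and all ref6-1 libraries lay within the WT range. The log2 change of STM was 0.32 in the double mutant (95% interval -0.02 to 0.66, edgeR adjusted p = 0.137), 0.38 in brm-1 (0.04 to 0.72, edgeR adjusted p = 0.112) and -0.05 in ref6-1 (-0.39 to 0.30, edgeR adjusted p = 0.895). WT replicate 1 decided the first pair: without it, STM was called at 0.48 in the double mutant (edgeR adjusted p = 0.0463) and at 0.54 in brm-1 (edgeR adjusted p = 0.0438). Without double-mutant replicate 3 the double-mutant value was 0.15 (edgeR adjusted p = 0.497).

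KNAT6, which shares with STM a role in the meristem and at organ boundaries, had 26.8, 34.9 and 30.2 CPM in the double mutant, 35.7, 30.5 and 29.5 CPM in brm-1, 26.2, 25.8 and 30.7 CPM in ref6-1, and 28.6, 25.6 and 24.0 CPM in WT. Its brm-1 libraries lay above all WT libraries, and the other genotypes overlapped WT. The log2 change was 0.23 in the double mutant, 0.29 in brm-1 and 0.08 in ref6-1, with edgeR adjusted p values of 0.135 in the double mutant, 0.0845 in brm-1 and 0.73 in ref6-1. KNAT2, the closest relative of KNAT6, was counted 37 to 80 times per library, the lowest counts of the family. It had 5.11, 5.92 and 5.48 CPM in the double mutant, 5.08, 5.37 and 7.43 CPM in brm-1, 5.42, 5.84 and 7.31 CPM in ref6-1, and 4.43, 3.40 and 5.25 CPM in WT. Its log2 change against WT was 0.33 in the double mutant (95% interval -0.12 to 0.79), 0.44 in brm-1 (-0.01 to 0.90) and 0.50 in ref6-1 (0.05 to 0.95). Its brm-1 and double-mutant libraries overlapped WT, and all ref6-1 libraries lay above WT, but no value passed (edgeR adjusted p = 0.254 in the double mutant, 0.166 in brm-1 and 0.162 in ref6-1). The double-mutant values without replicate 3 were 0.24 for KNAT6 and 0.34 for KNAT2. Summed over the 4 class I genes, levels ran from 112.1 to 122 CPM in the double mutant, from 102.5 to 108.3 CPM in brm-1, from 89.43 to 98.01 CPM in ref6-1 and from 82.13 to 92.2 CPM in WT.

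**Figure D2:**
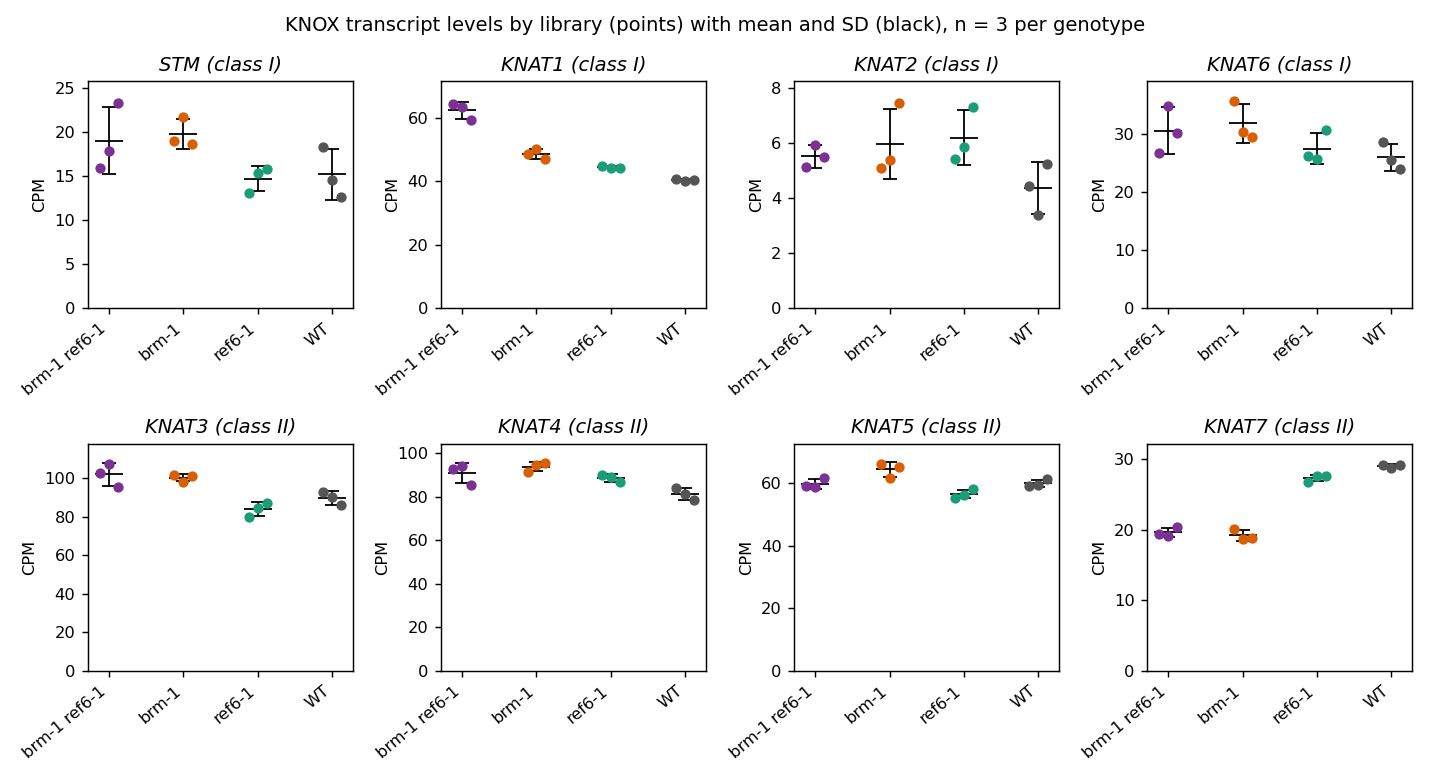
CPM (y axes, each starting at 0) of each KNOX gene in the 12 libraries, by genotype along the x axes. Points are libraries and black lines are the mean and SD of 3 libraries. KNAT1 is highest in brm-1 ref6-1 at 59.3 to 64.3 CPM, and KNAT7 lies at 18.7 to 20.4 CPM in both genotypes that carry brm-1, against 26.8 to 29.2 CPM in ref6-1 and WT.

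KNAT7 fell wherever brm-1 was present. KNAT7 is a repressor of secondary wall and lignin genes in stem fibres. The gene lies on chromosome 1 at 23337167 to 23340692, on the plus strand, with 1521 exonic bases. It had 19.5, 19.1 and 20.4 CPM in the double mutant, 20.1, 18.7 and 18.9 CPM in brm-1, 26.8, 27.6 and 27.6 CPM in ref6-1, and 29.1, 28.8 and 29.2 CPM in WT. Both genotypes with brm-1 lay below every library of ref6-1 and WT, and ref6-1 lay just below WT without overlap. Against WT the log2 change was -0.57 ± 0.06 in the double mutant (SE, 95% interval -0.69 to -0.44, edgeR adjusted p = 3.02e-05), a level 1.48-fold lower. In brm-1 it was -0.60 ± 0.06 (-0.72 to -0.47, edgeR adjusted p = 3.97e-05), 1.51-fold lower. In ref6-1 it was -0.09 (-0.21 to 0.03, edgeR adjusted p = 0.44). Without double-mutant replicate 3 the double-mutant value was -0.59. Root markers, of which 6 were summed, ranged over 227.4 to 244.5 CPM in the double mutant, 241.1 to 255.5 CPM in brm-1, 239.1 to 243.2 CPM in ref6-1 and 250.4 to 264.6 CPM in WT. The summed shoot markers RBCS1A and LHCB1.3 overlapped between all genotypes. Since levels of abundant transcripts may be compressed, this overlap does not show that the share of shoot tissue was alike. The root markers did not move together. Against WT, WOX5 was called higher in the double mutant (log2 change 1.09, edgeR adjusted p = 0.0097) and in brm-1 (0.92, edgeR adjusted p = 0.0346). PHT1;1 was called lower in the double mutant (-0.35, edgeR adjusted p = 0.00501), and PLT2 in brm-1 (-0.69, edgeR adjusted p = 0.0392). In ref6-1, 0 of the 8 shoot and root markers were called, where 7.95% of all genes tested were called. The part of these markers in the KNAT7 result was not tested.

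KNAT3 and KNAT4, the near-identical pair of the homeobox sequences above, rose by small amounts. KNAT3, which acts in organ differentiation and in root hormone responses, had 103, 107 and 95.6 CPM in the double mutant, 102, 98.2 and 101 CPM in brm-1, 79.8, 84.7 and 87.1 CPM in ref6-1, and 92.8, 90.3 and 86.0 CPM in WT. Libraries with brm-1 all lay above those without it, and ref6-1 overlapped WT. Its log2 change was 0.18 ± 0.05 in the double mutant (SE, edgeR adjusted p = 0.00963), 0.16 ± 0.05 in brm-1 (edgeR adjusted p = 0.0277) and -0.10 ± 0.05 in ref6-1 (edgeR adjusted p = 0.224). The brm-1 call was lost with DESeq2 (adjusted p = 0.0674) and on leaving out any of WT replicates 2 and 3 and brm-1 replicates 1 and 3, over alternatives with an adjusted p of 0.0165 to 0.101. Without double-mutant replicate 3 the double-mutant value was 0.23 (edgeR adjusted p = 0.00339).

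KNAT4 had 92.7, 94.3 and 85.7 CPM in the double mutant, 91.6, 94.6 and 95.4 CPM in brm-1, 90.1, 89.3 and 86.9 CPM in ref6-1, and 84.1, 81.3 and 78.6 CPM in WT. All 9 mutant libraries lay above the WT libraries. Against WT the log2 change was 0.16 ± 0.04 in the double mutant (SE, edgeR adjusted p = 0.00939), 0.21 ± 0.04 in brm-1 (edgeR adjusted p = 0.00314) and 0.12 ± 0.04 in ref6-1 (edgeR adjusted p = 0.0743). The double-mutant value was 0.20 without double-mutant replicate 3 (edgeR adjusted p = 0.00247). The ref6-1 value passed at 0.13 (edgeR adjusted p = 0.0407) when double-mutant replicate 3, a library outside that comparison, was left out of the shared fit. KNAT5 had 59.0, 58.9 and 61.8 CPM in the double mutant, 66.2, 61.9 and 65.3 CPM in brm-1, 55.3, 56.4 and 58.1 CPM in ref6-1, and 59.2, 59.6 and 61.3 CPM in WT. It passed in no comparison with WT. Its log2 change was 0.00 in the double mutant, with a 95% interval of -0.08 to 0.08, 0.10 in brm-1 and -0.09 in ref6-1. The double-mutant value without replicate 3 was -0.03. Class II genes together summed to 263.5 to 279.4 CPM in the double mutant, 273.3 to 280.3 CPM in brm-1, 252 to 259.7 CPM in ref6-1 and 255.2 to 265.3 CPM in WT.

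**Figure D3:**
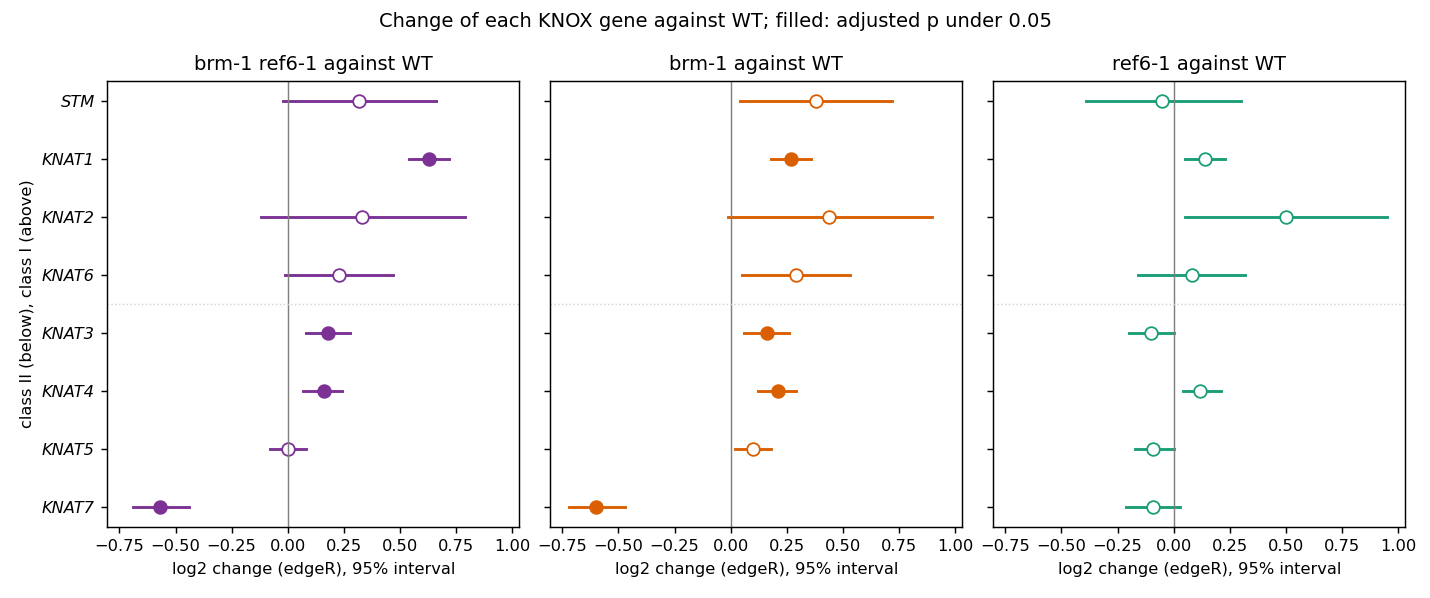
Log2 change of each KNOX gene against WT from edgeR (x axes), with 95% intervals as bars, for brm-1 ref6-1, brm-1 and ref6-1. Filled points passed at an adjusted p under 0.05. KNAT1 lies at 0.63 and KNAT7 at -0.57 in the double mutant, and no point is filled in ref6-1.

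Comparing the mutants with each other showed which members differed by the second mutation. Between the double mutant and brm-1, which differ by ref6-1, only 1 of 8 members was called, against 4.38% of all genes tested (1.12% higher and 3.27% lower). That member was KNAT1, with a log2 difference of 0.36 ± 0.04 (SE, edgeR adjusted p = 0.000503). KNAT7 differed by 0.03 (95% interval -0.10 to 0.16), KNAT3 by 0.02 (-0.08 to 0.12) and KNAT4 by -0.05 (-0.13 to 0.04).

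Between the double mutant and ref6-1, which differ by brm-1, 3 of 8 members were called, against 11.9% of all genes (5.39% higher and 6.56% lower). KNAT1 was higher by 0.49 ± 0.04 (SE, edgeR adjusted p = 2.73e-05) and KNAT3 by 0.28 ± 0.05 (edgeR adjusted p = 0.00189), and KNAT7 was lower, at -0.48 ± 0.06 (edgeR adjusted p = 0.000273). Between brm-1 and ref6-1, 3 of 8 were called, against 16.1% of all genes (8.61% higher and 7.47% lower). KNAT3 was higher in brm-1 by 0.26 ± 0.05 (edgeR adjusted p = 0.00228) and KNAT5 by 0.19 ± 0.04 (edgeR adjusted p = 0.0049), and KNAT7 was lower, at -0.51 ± 0.06 (edgeR adjusted p = 0.000106). The KNAT5 difference joins a value above WT in brm-1 and one below WT in ref6-1, neither of which passed alone.

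The interaction contrast asks whether the change with ref6-1 in the brm-1 background differs from the change with ref6-1 in the WT background. None of the 8 members passed with edgeR, DESeq2 or limma-voom, 2 had an unadjusted edgeR p under 0.05, and edgeR called 0.245% of all genes (0.186% above 0 and 0.0589% below). The pair was KNAT1, at 0.22 on the log2 scale (95% interval 0.10 to 0.35, edgeR adjusted p = 0.19), and KNAT4, at -0.17 (-0.29 to -0.05, edgeR adjusted p = 0.303). Thus the KNAT1 level of the double mutant was not shown to exceed the sum of the single-mutant changes. Leaving out double-mutant replicate 3 changed none of the member calls between mutants or in the interaction. KNAT1 was then higher in the double mutant by 0.39 than in brm-1 and by 0.52 than in ref6-1.

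The sequences just upstream of KNAT1 and KNAT7 are printed because KNAT1 rose most and KNAT7 was the member that fell in the double mutant. Each covers the 250 bases before the annotated start of the gene in TAIR10.1, on the gene's strand. That of KNAT1 lies at chr4:5151160-5151409 on the minus strand, and that of KNAT7 at chr1:23336917-23337166 on the plus strand. Capitals mark the letters GAGAGA, the core of the repeats bound by plant GAGA-binding proteins.
KNAT1: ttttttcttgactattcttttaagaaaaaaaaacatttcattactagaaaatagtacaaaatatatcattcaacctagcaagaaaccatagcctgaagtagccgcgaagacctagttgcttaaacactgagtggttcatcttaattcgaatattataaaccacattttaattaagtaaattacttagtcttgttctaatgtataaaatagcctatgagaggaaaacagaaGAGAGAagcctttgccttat
KNAT7: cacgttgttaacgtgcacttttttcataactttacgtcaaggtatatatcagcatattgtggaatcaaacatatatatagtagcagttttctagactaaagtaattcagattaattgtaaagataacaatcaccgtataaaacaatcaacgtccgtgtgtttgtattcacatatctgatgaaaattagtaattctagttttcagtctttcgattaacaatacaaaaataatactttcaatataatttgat
GAGAGA was searched on both strands, with overlapping matches counted. It occurred 1 time upstream of KNAT1, in 2 overlapping copies upstream of KNAT6 and not in the windows of the other 6 members, and 20.6% of 27443 upstream windows of the same length held it. The motif that REF6 binds through its zinc fingers was searched on both strands as CTCTGCTC, CTCTGCTT, CTCTGTTC and CTCTGTTT. It occurred in the upstream window of 0 of 8 members, against 5.77% of all windows.

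BELL partner genes of KNOX proteins were called in both directions. Over all genes tested against WT, 14.0% were called higher and 17.3% lower in the double mutant. The shares were 8.88% and 10.1% in brm-1, and 2.33% and 5.63% in ref6-1. With lists this short, the counts given here and for the lists below can lie near these shares and are descriptions. Of 13 BELL genes, 12 were tested, and against WT 4 rose and 3 fell in the double mutant, 1 rose and 3 fell in brm-1, and 2 rose and 2 fell in ref6-1. Their median log2 change was 0.09 in the double mutant, 0.01 in brm-1 and 0.05 in ref6-1. The single rise in brm-1 was lost without WT replicate 1 or 3 or without brm-1 replicate 2 or 3, and it became 2 without WT replicate 2. Both rises in ref6-1 were lost without WT replicate 1, WT replicate 3 or ref6-1 replicate 2, and 1 was lost without ref6-1 replicate 3. BLH9, also called PENNYWISE, which pairs with STM and KNAT1 in the meristem, had 46.9, 47.8 and 46.3 CPM in the double mutant, 45.0, 45.1 and 43.2 CPM in brm-1, 62.1, 67.7 and 66.0 CPM in ref6-1, and 55.4, 62.6 and 54.8 CPM in WT. Libraries with brm-1 lay below all others. Against WT the log2 change of BLH9 was -0.29 ± 0.05 in the double mutant (SE, edgeR adjusted p = 0.00147) and -0.37 ± 0.05 in brm-1 (edgeR adjusted p = 0.000498). In ref6-1 it was 0.18 ± 0.05 (edgeR adjusted p = 0.049). In the double mutant against ref6-1 it was -0.47 ± 0.05 (edgeR adjusted p = 0.000168). BLH3, another BELL gene, had 42.4, 45.0 and 49.9 CPM in the double mutant, 84.9, 76.2 and 77.4 CPM in brm-1, 54.4, 57.5 and 61.1 CPM in ref6-1, and 91.3, 87.4 and 88.2 CPM in WT. No genotype overlapped another, with the double mutant lowest and WT highest. Its log2 change against WT was -0.96 ± 0.06 in the double mutant (SE, edgeR adjusted p = 1.62e-06), -0.16 ± 0.06 in brm-1 (edgeR adjusted p = 0.0696) and -0.63 ± 0.06 in ref6-1 (edgeR adjusted p = 7.02e-05). The double mutant was also lower than brm-1 (-0.80 ± 0.06, edgeR adjusted p = 5.58e-05) and lower than ref6-1 (-0.33 ± 0.06, edgeR adjusted p = 0.00519). BLH10 fell in the double mutant (-0.18 ± 0.05, edgeR adjusted p = 0.0168), in brm-1 (-0.22 ± 0.05, edgeR adjusted p = 0.00877) and in ref6-1 (-0.26 ± 0.05, edgeR adjusted p = 0.00932). BLH2 rose in the double mutant (0.26 ± 0.05, edgeR adjusted p = 0.00129) and in ref6-1 (0.19 ± 0.05, edgeR adjusted p = 0.024). BLH2 and BLH9 are the 2 rises in ref6-1 that were lost on leaving out single libraries.

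OVATE family proteins and KNATM, a KNOX protein without a homeodomain, bind BELL and KNOX proteins. Of 4 such genes 3 were tested, and 2 rose in the double mutant and in brm-1 and 0 in ref6-1. OFP5 averaged 25.3 ± 2.36 CPM in the double mutant, 26.2 ± 1.87 CPM in brm-1, 18.0 ± 0.974 CPM in ref6-1 and 16.9 ± 0.520 CPM in WT (SD, n = 3 each). Its log2 change against WT was 0.58 ± 0.08 in the double mutant (SE, edgeR adjusted p = 0.00036) and 0.63 ± 0.08 in brm-1 (edgeR adjusted p = 0.000289). KNATM was counted 21, 23 and 25 times in the double mutant, 30, 30 and 8 times in brm-1, 5, 4 and 4 times in ref6-1, and 6, 12 and 4 times in WT. Its rise of 1.74 in the double mutant (log2 scale, edgeR adjusted p = 0.0159) was lost on leaving out WT replicate 1 or 3. Its rise of 1.62 in brm-1 (edgeR adjusted p = 0.0332) was lost on leaving out any of 4 libraries, WT replicates 1 and 3 and brm-1 replicates 1 and 2, and adjusted p ran from 0.00617 to 0.133 over alternatives.

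Of 10 repressors of class I KNOX genes, 2 rose in the double mutant, 2 in brm-1 and 1 in ref6-1, and none fell. Without double-mutant replicate 3 the count of rises there was 4, and without brm-1 replicate 1 there was 1 fall in brm-1. The median log2 change was 0.06 in the double mutant and 0 in both single mutants. FIL, a YABBY gene of the lower leaf side, averaged 47.9 ± 4.10 CPM in the double mutant, 47.0 ± 2.00 CPM in brm-1, 42.3 ± 3.94 CPM in ref6-1 and 32.7 ± 1.93 CPM in WT (SD, n = 3 each). It rose by 0.55 ± 0.08 in the double mutant (SE, edgeR adjusted p = 0.000263), by 0.52 ± 0.08 in brm-1 (edgeR adjusted p = 0.000584) and by 0.37 ± 0.08 in ref6-1 (edgeR adjusted p = 0.0116), the last of which was lost without WT replicate 1 (edgeR adjusted p = 0.0572). BOP1, which acts at the leaf base, averaged 17.4 ± 1.79 CPM in the double mutant and 6.29 ± 3.04 CPM in WT, and differed by 1.46 ± 0.33 on the log2 scale (SE, edgeR adjusted p = 0.00679). In brm-1 BOP1 averaged 13.7 ± 2.72 CPM and its call (edgeR adjusted p = 0.038) was lost on leaving out any of WT replicates 2 and 3 and brm-1 replicates 1 and 2, at an adjusted p of 0.00793 to 0.121 over alternatives. AS1, AS2 and the Polycomb genes CLF, SWN and LHP1 passed in no comparison with WT.

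Of 8 meristem and boundary genes 6 were tested. Against WT, 2 rose and 1 fell in the double mutant, 2 rose in brm-1 and 1 fell in ref6-1. Leaving out WT replicate 1, WT replicate 2 or double-mutant replicate 1 ended 1 of the rises in the double mutant. CLV1, a receptor kinase that limits the stem cell pool, averaged 137.5 CPM in the double mutant, 141.8 CPM in brm-1 and 122.2 CPM in WT, and rose by 0.17 ± 0.04 in the double mutant (SE, edgeR adjusted p = 0.00351) and by 0.21 ± 0.04 in brm-1 (edgeR adjusted p = 0.00126). CUC1, a boundary gene that acts upstream of STM, was counted 0, 0 and 0 times in the double mutant, 16, 8 and 10 times in brm-1, 4, 4 and 2 times in ref6-1, and 22, 13 and 17 times in WT. With a floor of 3 counts over the double-mutant group, CUC1 was at least 16.1-fold lower there than in WT (edgeR adjusted p = 0.00027) and at least 10.7-fold lower than in brm-1 (edgeR adjusted p = 0.00516). Its fall of 2.30 on the log2 scale in ref6-1 (edgeR adjusted p = 0.0145) was lost without WT replicate 1 (edgeR adjusted p = 0.063). CUC3 rose by 1.14 ± 0.33 in brm-1 (SE, edgeR adjusted p = 0.0308), a call lost on leaving out any of WT replicates 1 and 2 and brm-1 replicates 2 and 3. In the double mutant CUC3 rose by 1.07 ± 0.34 (edgeR adjusted p = 0.0289). This was the double-mutant rise that single libraries ended, since CLV1 passed there under all alternatives.

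Among 4 hormone genes that class I KNOX proteins control, 1 rose in the double mutant, 1 in brm-1 and 0 in ref6-1. GA20OX1, a gibberellin synthesis gene repressed by class I KNOX proteins, averaged 6.82 ± 1.81 CPM in brm-1 and 3.75 ± 0.505 CPM in WT, and its rise of 0.87 (edgeR adjusted p = 0.028) was lost on leaving out any of WT replicates 1 and 3 and brm-1 replicates 1 and 2. GA2OX4, which inactivates gibberellin, rose by 1.02 in the double mutant (edgeR adjusted p = 0.0305), a call lost on leaving out any of WT replicates 1 and 2 and double-mutant replicates 2 and 3. It was also lost in a fit of just the genotypes compared (edgeR adjusted p = 0.0588), and adjusted p ran from 0.0153 to 0.126 over alternatives. Of 22 lignin and secondary wall genes, 20 were tested. Not all of them act downstream of KNAT7, since the list also holds transcription factors of the secondary wall. Against WT 1 rose and 3 fell in the double mutant, and 1 fell in brm-1. In ref6-1 0 were called (1 higher and 1 lower without ref6-1 replicate 3). The single rise was lost without any of 5 libraries, all but WT replicate 3, and brm-1 had 2 falls without brm-1 replicate 3. The median log2 change was -0.11 in the double mutant, -0.02 in brm-1 and 0.02 in ref6-1. PAL1, the entry enzyme of phenylpropanoid synthesis, fell by 0.15 ± 0.03 both in the double mutant (SE, edgeR adjusted p = 0.00631) and in brm-1 (edgeR adjusted p = 0.00702). CAD5, a lignin alcohol dehydrogenase, fell by 0.24 ± 0.06 in the double mutant (SE, edgeR adjusted p = 0.0113). With double-mutant replicate 3 left out, log2 changes in the double mutant against WT were -1.03 for BLH3, 0.27 for BLH2, 0.58 for OFP5, 1.69 for KNATM, 0.59 for FIL, 1.54 for BOP1, 0.17 for CLV1, -0.11 for PAL1 and -0.23 for CAD5, and these 9 still passed (edgeR, adjusted p under 0.05). The counts of called genes in each list stand beside the 14.0% of all genes called higher and 17.3% called lower in the double mutant, 8.88% and 10.1% in brm-1, and 2.33% and 5.63% in ref6-1.

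**Figure D4:**
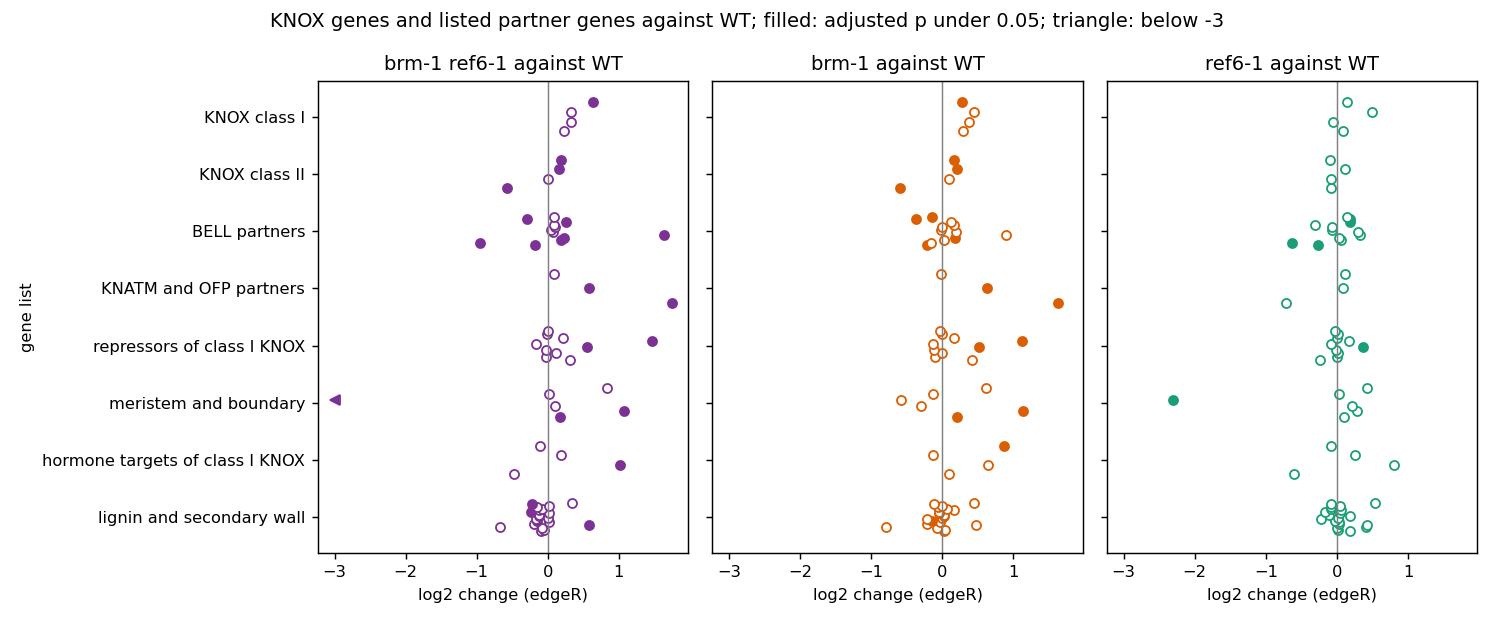
Log2 change against WT from edgeR (x axes) of every tested gene in the KNOX classes and the lists of partners, repressors, meristem, hormone and secondary wall genes (y axis), for brm-1 ref6-1, brm-1 and ref6-1. Filled points passed at an adjusted p under 0.05, and the triangle marks CUC1, which had 0 counts in brm-1 ref6-1. Of the 12 BELL genes, 7 are filled in brm-1 ref6-1 and 4 in each single mutant, and neither KNOX class has a filled point in ref6-1.

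The genes whose levels most resembled those of a member were found by Pearson's r of log2 CPM over the 12 libraries, among 9038 genes with a symbol and a mean of at least 2 CPM. The values are descriptions, since the libraries share 4 genotypes and genes chosen in this way resemble the member by selection. For KNAT7 the nearest were CYP71A20 (r = 0.988), JAZ4 (r = 0.982) and XIF (r = 0.981). JAZ4, a repressor of jasmonate signalling, averaged 13.4 ± 1.47 CPM in the double mutant, 13.6 ± 2.57 CPM in brm-1, 25.5 ± 2.84 CPM in ref6-1 and 28.9 ± 1.25 CPM in WT. XIF, a myosin, averaged 46.8 ± 5.80 CPM in the double mutant, 44.1 ± 2.34 CPM in brm-1, 67.2 ± 1.61 CPM in ref6-1 and 71.8 ± 1.86 CPM in WT (SD, n = 3 each). JAZ4 and XIF thus had the low level in genotypes with brm-1 by which they were selected. CYP71A20 averaged 0.188 CPM in the double mutant, 0.122 CPM in brm-1, 6.12 CPM in ref6-1 and 9.59 CPM in WT. Its fall was much larger than that of KNAT7 and ended near 0. For KNAT1 the nearest were ZIFL2 (r = 0.962), MRE11 (r = 0.948) and HGL1 (r = 0.946). ZIFL2, a membrane transporter, averaged 33.5 ± 0.773 CPM in the double mutant, 25.2 ± 1.04 CPM in brm-1, 20.7 ± 1.75 CPM in ref6-1 and 17.5 ± 1.54 CPM in WT, the order of genotypes seen for KNAT1. For KNAT3 they were BSK1 (r = 0.955), GRP-3 (r = 0.942) and FLP (r = 0.932), and for KNAT4 they were TIP2;2 (r = 0.940), ABCB29 (r = 0.920) and APC10 (r = 0.910).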

How the data were processed

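Total RNA of 12 seedling libraries was sequenced as paired reads after a TruSeq preparation, per the labels' protocols. The deposited table gives whole-number counts for each locus, which the authors obtained from reads aligned to TAIR10. The aligner was TopHat2, per the submitters' processing notes. Not given in the sources used here are the counting tool, whether it used strand, and whether duplicates were removed. Locus identifiers were matched to the RefSeq TAIR10.1 annotation (28932 of 29420), which also gave gene models, exon lengths and sequences.

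All 12 libraries were fitted together with edgeR 4.0.16 (limma 3.58.1) in R 4.3.3, with 1 mean per genotype, TMM normalization and the filterByExpr filter, which kept 22076 genes. The robust quasi-likelihood F test was two-sided, with Benjamini-Hochberg adjustment over all genes tested, and genes were called at an adjusted p under 0.05. Depth was 10119148 to 11860892 counts per library. The 95% intervals come from the standard error of the fit. The floor of 3 counts covers counting error only. The interaction contrast took the difference of ref6-1 from WT away from the difference of the double mutant from brm-1.

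The members and gene lists were chosen with earlier results of these data known. Named are all 8 members, BRM and REF6, the called list genes with the smallest adjusted p (2 per list against WT, 1 otherwise) and the 3 genes most like each member called against WT. Marker genes and list genes stated not to pass were named after their values were seen, and some genes the rule names between mutants are counted and not described. Alternatives were edgeR with the size factors of DESeq2, DESeq2 1.42.0 itself, limma-voom, no filter, a minimum of 1 CPM in 6 libraries, a fit of just the genotypes compared, an adjusted p under 0.01, a replicate block and each library left out. Replicate libraries of a genotype differed by more than sampling noise (chi-square per degree of freedom 1.639 to 4.141). The fitting code was tested on simulated data.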

Additional observations from a re-analysis of the deposited data

How the results depend on the processing

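The KNAT1 and KNAT7 calls held, in every comparison where they were made, under all alternatives computed. With each library left out, the number of members called ran from 3 to 5 of 8 in brm-1 against WT, 4 to 5 in the double mutant against WT and 0 to 1 in ref6-1 against WT, the 1 being KNAT4 without double-mutant replicate 3. In brm-1 against ref6-1 it was 4 with only the groups compared, where STM was added, against 3. Same-numbered libraries of different genotypes, each taken as deviations from its genotype mean, had correlations of -0.225 to 0.368, and 6 of 18 exceeded 0.1. Differently numbered libraries were not compared in this way, so these values do not settle whether the replicate numbers pair the libraries. With the number as a replicate block, the counts of members called were the same as without it in all 7 contrasts, for example 4 in the double mutant against WT and 1 in the double mutant against brm-1. Changes near 0 altered sign. KNAT5 in the double mutant against WT stayed at 0 without a filter, with at least 1 CPM in 6 libraries and with only the groups compared. With each library left out, ranges were -0.03 to 0.02 for KNAT5 in that comparison and -0.05 to 0 in the interaction, -0.16 to 0.11 for STM in ref6-1 against WT, -0.18 to 0.11 in the interaction and -0.23 to 0.06 in the double mutant against brm-1, -0.16 to 0.03 for KNAT6 in the double mutant against brm-1 and 0 to 0.15 in ref6-1 against WT, -0.21 to 0.07 for KNAT2 in the double mutant against brm-1 and -0.25 to 0.07 in brm-1 against ref6-1, -0.01 to 0.07 for KNAT3 in the double mutant against brm-1, and -0.04 to 0.06 for REF6 in brm-1 against WT. The cause was not tested. The share of all genes called depended on single libraries: 3.88% in ref6-1 without WT replicate 1 against 7.95%, 12.2% in brm-1 without brm-1 replicate 2 against 19.0%, 7.61% in the double mutant against ref6-1 without double-mutant replicate 2 against 11.9%, 1.63% in the double mutant against brm-1 without the same library against 4.38%, and 0.0539% in the interaction without ref6-1 replicate 2 against 0.245% (0.43% with DESeq2). At an adjusted p under 0.01 the shares were 17.4% in the double mutant, 9.68% in brm-1 and 2.82% in ref6-1, each against WT.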
